A study of Mus musculus with 10 samples.

Results

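The 45 genes described here are markers of tissues that lie beside the embryonic brain: skeletal muscle (21 genes), skin and other epithelium (12), cartilage (8) and bone (4). They were taken from a fixed list by gene symbol, matched to Entrez gene IDs, and all 45 were found among the 30935 gene IDs of the count table. The libraries were RNA-seq of embryonic mouse midbrain, taken at day 14.5 of development. The wild-type group (Rbfox1 +/+) held 5 libraries, numbered 1, 2, 4, 5 and 6. The deletion group, homozygous for the allele Rbfox1 ΔHAR.321 and labelled as a knockout of 2xHAR.321, held 5 libraries, numbered 2, 3, 4, 5 and 6. HAR.321 is an element of the Rbfox1 locus named as a human accelerated region, a sequence that changed fast on the human lineage, and Rbfox1 encodes a splicing regulator of neurons. The samples are described as independent. Strain, sex, litter, dissection day and the cells in which the allele is deleted are not stated in the labels.

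Skeletal muscle forms when the transcription factors Myod1, Myf5, Myf6 and Myog commit precursor cells and then switch on the proteins of the sarcomere, the contractile unit. Skin and other covering epithelia are held together by keratin filaments, desmosomes and E-cadherin, and cartilage by a matrix of type II, IX and XI collagens and aggrecan. At this stage muscle, skin and skull precursors lie close to the brain, so their marker genes serve to gauge how much of such tissue a dissected sample holds. Several of these genes have other sources in or around the brain: Col2a1 is also transcribed in embryonic neuroepithelium, and Spp1 by microglia and macrophages. A marker shared in this way cannot by itself point to 1 tissue.

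Each library held 16246892 to 20255728 counts, and 18365 to 19452 genes had at least 1 count. Of the midbrain and neural genes examined, all 12 had counts in every library. They ran from 7.40 counts-per-million (CPM) per kb of transcript for Foxa2, a floor plate factor, to 1333 for Tubb3, the neuronal tubulin. No genes of other brain regions were set beside them, so these levels do not check the region dissected. CPM values are scaled between libraries by the trimmed mean of M-values (TMM).

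The markers made up very little of these libraries. Together the 45 genes took 28632 counts, 0.0156% of all counts, and Col2a1 alone took 12267 of them. Of the 45, 23 had a count in all 10 libraries, 7 in 5 to 9 libraries, 10 in 1 to 4 libraries, and 5 had none: Myog, the muscle troponin gene Tnnc2, the paired basal keratin genes Krt5 and Krt14, and the cartilage matrilin gene Matn1. A count of 0 over all 10 libraries allows a level of up to 0.0163 CPM (3 counts of the summed, TMM-scaled library size), and a count of 0 in 1 library allows 0.149 to 0.185 CPM. These limits cover counting error only. Between 29 and 34 of the 45 genes had a count in any 1 library.

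**Figure D1:**
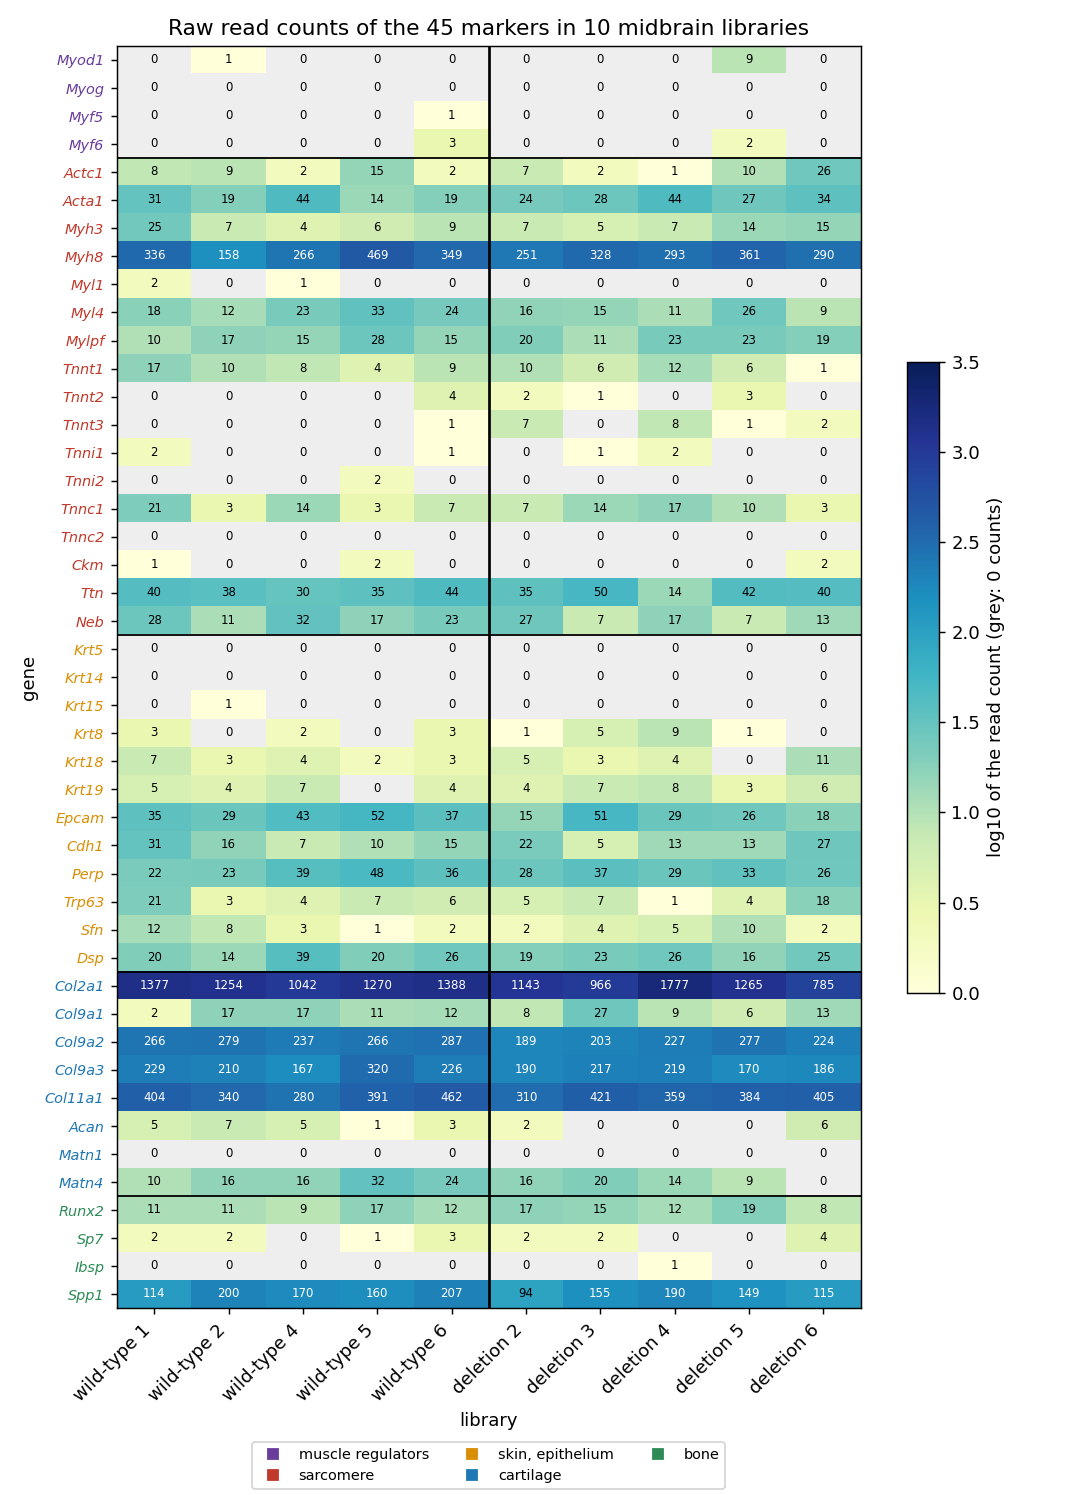
Raw read counts of the 45 markers (rows, coloured by tissue) in the 10 libraries (columns, wild-type left and deletion right of the thick line); shading is log10 of the count, and grey cells hold 0 counts. Myog, Tnnc2, Krt5, Krt14 and Matn1 are grey throughout, while Col2a1 holds 785 to 1777 counts in every library.

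The promoters of 3 of the genes with no count, 1 for each of muscle, skin and cartilage, are shown beside that of Myh8, the muscle gene with the highest CPM among the 45. Each is the 250 bases before the RefSeq gene start in GRCm38.p6, a build other than the mm39 of the counts, read 5′ to 3′ on the gene's strand; capitals mark E-boxes (CANNTG), the sites that muscle regulators and many other basic helix-loop-helix factors bind.
Myog (chr1:134289754-134290003, plus strand): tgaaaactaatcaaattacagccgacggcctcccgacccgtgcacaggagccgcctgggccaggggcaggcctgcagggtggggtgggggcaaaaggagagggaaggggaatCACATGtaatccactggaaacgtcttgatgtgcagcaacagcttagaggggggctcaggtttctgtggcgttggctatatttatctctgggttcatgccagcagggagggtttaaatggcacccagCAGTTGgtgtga
Krt14 (chr11:100206031-100206280, minus strand): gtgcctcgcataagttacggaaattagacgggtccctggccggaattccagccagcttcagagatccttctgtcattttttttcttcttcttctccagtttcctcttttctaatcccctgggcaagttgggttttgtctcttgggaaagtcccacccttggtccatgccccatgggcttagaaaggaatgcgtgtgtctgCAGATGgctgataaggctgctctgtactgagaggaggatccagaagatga
Matn1 (chr4:130944135-130944384, plus strand): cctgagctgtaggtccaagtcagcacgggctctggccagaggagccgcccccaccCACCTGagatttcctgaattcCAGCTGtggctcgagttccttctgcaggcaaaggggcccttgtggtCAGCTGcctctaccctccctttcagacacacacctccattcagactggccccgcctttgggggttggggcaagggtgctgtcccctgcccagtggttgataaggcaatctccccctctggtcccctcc
Myh8 (chr11:67276874-67277123, plus strand): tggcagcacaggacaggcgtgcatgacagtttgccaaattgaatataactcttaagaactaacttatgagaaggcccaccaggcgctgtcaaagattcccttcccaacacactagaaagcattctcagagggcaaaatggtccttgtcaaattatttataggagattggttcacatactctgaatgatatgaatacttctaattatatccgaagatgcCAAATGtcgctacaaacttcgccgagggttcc

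The Myog window held 2 E-boxes, that of Krt14 held 1, that of Matn1 held 3 and that of Myh8 held 1. E-boxes are common: 66.0% of 27025 RefSeq promoters of this length hold one, against 13 of the 16 muscle genes, 6 of the 7 skin genes and 7 of the 9 cartilage and bone genes with a promoter in the table. The narrower form CAGCTG, which is also counted as an E-box, stood in 6 of the 16 muscle, 1 of the 7 skin and 4 of the 9 cartilage and bone promoters, and in 12.8% of all promoters. Both strands were searched. In all, 32 of the 45 genes had a promoter in the table. A match in letters is a description of the window, not a bound site.

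The muscle regulators were near absent. Myod1, which commits cells to the muscle lineage, had 0, 1, 0, 0 and 0 counts in wild-type 1, 2, 4, 5 and 6, and 0, 0, 0, 9 and 0 in deletion 2, 3, 4, 5 and 6. Myf6 had 0, 0, 0, 0 and 3 counts in the wild-type and 0, 0, 0, 2 and 0 in the deletion libraries, in the same order. Myf5 had a single count, in wild-type 6, and Myog, which drives the fusion of muscle cells, had none. Counts of these 4 genes thus came from wild-type 2, wild-type 6 and deletion 5 alone, and the other 7 libraries had 0. None of the 4 passed the filter on low counts. Without the filter, edgeR gave adjusted p-values of 0.592 for Myod1, 0.729 for Myf5 and 0.946 for Myf6.

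Several other muscle genes had few counts. Ckm, muscle creatine kinase, had 1, 0, 0, 2 and 0 counts in the wild-type and 0, 0, 0, 0 and 2 in the deletion libraries. Tnni2, the fast troponin I, had counts in wild-type 5 only, where it had 2. Tnnt3, the fast troponin T, had 0, 0, 0, 0 and 1 counts in the wild-type and 7, 0, 8, 1 and 2 in the deletion libraries. With deletion 3 also at 0, the groups overlapped, and without a filter on low genes edgeR's quasi-likelihood test gave Tnnt3 an adjusted p of 0.369. Myl1, an essential light chain, had 2 counts in wild-type 1, 1 in wild-type 4 and 0 elsewhere, and Tnni1 and Tnnt2, the slow troponin I and the cardiac troponin T, had at most 2 and 4 counts in any library.

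Other sarcomere genes had counts in every library, and Myh8, the perinatal myosin heavy chain, stood above all of them. Myh8 had 336, 158, 266, 469 and 349 counts in wild-type 1, 2, 4, 5 and 6, and 251, 328, 293, 361 and 290 in deletion 2, 3, 4, 5 and 6. Its lowest and highest libraries were both wild-type (2 and 5), and the deletion libraries all lay between them. Myh8 took 65.8% of all counts of the 17 sarcomere and muscle enzyme genes. Its mean level was 16.9 ± 5.40 CPM over wild-type and 16.6 ± 2.08 CPM over deletion libraries (SD, n = 5 each here and below), and the log2 fold change was -0.04, with a standard error (SE) of 0.18 and a 95% interval from -0.41 to 0.33. Myh3, the embryonic heavy chain of developing muscle, had only 4 to 25 counts a library. The myosin heavy chains are close in sequence, as are the actins, so reads of these genes may have been placed on a relative.

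The skeletal actin gene Acta1 had 31, 19, 44, 14 and 19 counts in the wild-type and 24, 28, 44, 27 and 34 in the deletion libraries. Its cardiac relative Actc1 had 8, 9, 2, 15 and 2 against 7, 2, 1, 10 and 26, with its highest count in deletion 6. Mylpf, the fast regulatory light chain, had 10, 17, 15, 28 and 15 counts against 20, 11, 23, 23 and 19. For all 3 genes the groups overlapped. Ttn, the giant spring protein titin, had 40, 38, 30, 35 and 44 counts against 35, 50, 14, 42 and 40, with the lowest value in deletion 4. Neb, which sets the length of thin filaments, had 28, 11, 32, 17 and 23 against 27, 7, 17, 7 and 13, and had the smallest p of the sarcomere genes (log2 fold change -0.62, SE 0.42, edgeR adjusted p = 0.660).

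Levels of different genes were compared per kb of the longest transcript, since a long transcript gives more reads. On this scale Ttn, with a transcript of 106824 bases, had 0.0189 CPM per kb and Neb 0.0442, against 2.72 for Myh8, 1.29 for Mylpf and 1.06 for Acta1. Mylpf and Acta1 ranged over 0.679 to 1.91 and 0.506 to 1.68 CPM per kb across libraries, so their order is not clear of their spread. The lowest Myh8 library (1.58) lay below the highest of each of them. Tnnc1, of slow and cardiac muscle, followed at 0.738, then Tnnt1 at 0.429, Myl4 at 0.310 and Actc1 at 0.303 CPM per kb. The ranges of these genes across libraries overlapped as well (Tnnc1 0.217 to 1.52, Actc1 0.0337 to 0.928), so their order is not clear either.

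Among the skin markers, the keratin genes Krt5, Krt14 and Krt15 were absent or nearly so, and the others had low counts. Krt5 and Krt14, which form the filaments of basal skin cells, had 0 counts in every library, and Krt15 had 1 count, in wild-type 2. Trp63, the transcription factor of stratified epithelium, had 21, 3, 4, 7 and 6 counts in the wild-type and 5, 7, 1, 4 and 18 in the deletion libraries. Sfn, the 14-3-3 sigma protein of epithelial cells, had 12, 8, 3, 1 and 2 against 2, 4, 5, 10 and 2. Wild-type 1 was highest for both genes and deletion 6 second for Trp63 only. The simple-epithelium keratins Krt8, Krt18 and Krt19 had at most 9, 11 and 8 counts in any library.

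The 4 epithelial genes high enough to be tested had a median log2 fold change of -0.13. Epcam, an adhesion protein of epithelial cells, had 35, 29, 43, 52 and 37 counts in the wild-type and 15, 51, 29, 26 and 18 in the deletion libraries. In CPM, deletion 3 (2.85) lay above the highest wild-type library (2.72), and the other 4 deletion libraries (0.924 to 1.44) lay below the lowest (1.78). Epcam averaged 2.13 ± 0.405 CPM over wild-type and 1.51 ± 0.787 CPM over deletion libraries, with the smallest p of the list (log2 fold change -0.49, SE 0.32, edgeR adjusted p = 0.630). Perp, a desmosome-associated membrane protein, had 22, 23, 39, 48 and 36 counts against 28, 37, 29, 33 and 26. Dsp, the desmosome protein desmoplakin, had 20, 14, 39, 20 and 26 against 19, 23, 26, 16 and 25, and Cdh1, E-cadherin, had 5 to 31 counts a library. Epcam and Perp had nearly the same level per length, 0.891 and 0.895 CPM per kb, above Cdh1 at 0.196 and Dsp at 0.129.

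The cartilage list held the highest level of the 45 genes beside genes with none. Col2a1, the type II collagen of cartilage, had 1377, 1254, 1042, 1270 and 1388 counts in wild-type 1, 2, 4, 5 and 6, and 1143, 966, 1777, 1265 and 785 in deletion 2, 3, 4, 5 and 6. The deletion group held both the highest and the lowest library. Per length it was at 13.1 CPM per kb, between the midbrain genes Pax5 and Nr4a2, and those 3 genes overlapped in range. Acan, the aggrecan core protein of cartilage, had 5, 7, 5, 1 and 3 counts in the wild-type and 2, 0, 0, 0 and 6 in the deletion libraries, or 0.0220 CPM per kb. Matn1, a cartilage matrix protein, had none. Col9a1 had 2, 17, 17, 11 and 12 counts against 8, 27, 9, 6 and 13, or 0.176 CPM per kb.

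The partners of Col9a1 in type IX collagen were much more abundant than it was. Col9a2 had 266, 279, 237, 266 and 287 counts in the wild-type and 189, 203, 227, 277 and 224 in the deletion libraries, and Col9a3 had 229, 210, 167, 320 and 226 against 190, 217, 219, 170 and 186. Per length they stood at 4.58 and 3.81 CPM per kb, with overlapping ranges. Col9a2 averaged 14.6 ± 1.59 CPM over wild-type and 12.2 ± 1.47 CPM over deletion libraries, and its deletion 5 library reached into the wild-type range. It was the single member with an unadjusted p under 0.05 (log2 fold change -0.26, SE 0.12, unadjusted p = 0.0371), and it did not pass edgeR's test (adjusted p = 0.429). Col11a1, which nucleates collagen fibrils, had 404, 340, 280, 391 and 462 counts against 310, 421, 359, 384 and 405, and its log2 fold change was 0.00 (SE 0.11). Matn4 had 10, 16, 16, 32 and 24 counts against 16, 20, 14, 9 and 0.

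Among bone genes, Spp1 took 91.3% of the counts of the 4 genes. Spp1, the matrix protein osteopontin, had 114, 200, 170, 160 and 207 counts in the wild-type and 94, 155, 190, 149 and 115 in the deletion libraries, with overlapping groups (9.37 ± 2.43 and 7.57 ± 1.60 CPM; log2 fold change -0.30, SE 0.18, edgeR adjusted p = 0.607). Microglial genes, another source of Spp1, were present in every library: 7 listed genes summed to 61.9 ± 1.47 CPM over wild-type and 62.0 ± 4.45 CPM over deletion libraries, and their part in the Spp1 level was not tested. Runx2, which starts bone formation, had 11, 11, 9, 17 and 12 counts against 17, 15, 12, 19 and 8. Sp7, the osteoblast factor that acts after Runx2, had 2, 2, 0, 1 and 3 against 2, 2, 0, 0 and 4. Ibsp, bone sialoprotein, had 1 count, in deletion 4.

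**Figure D2:**
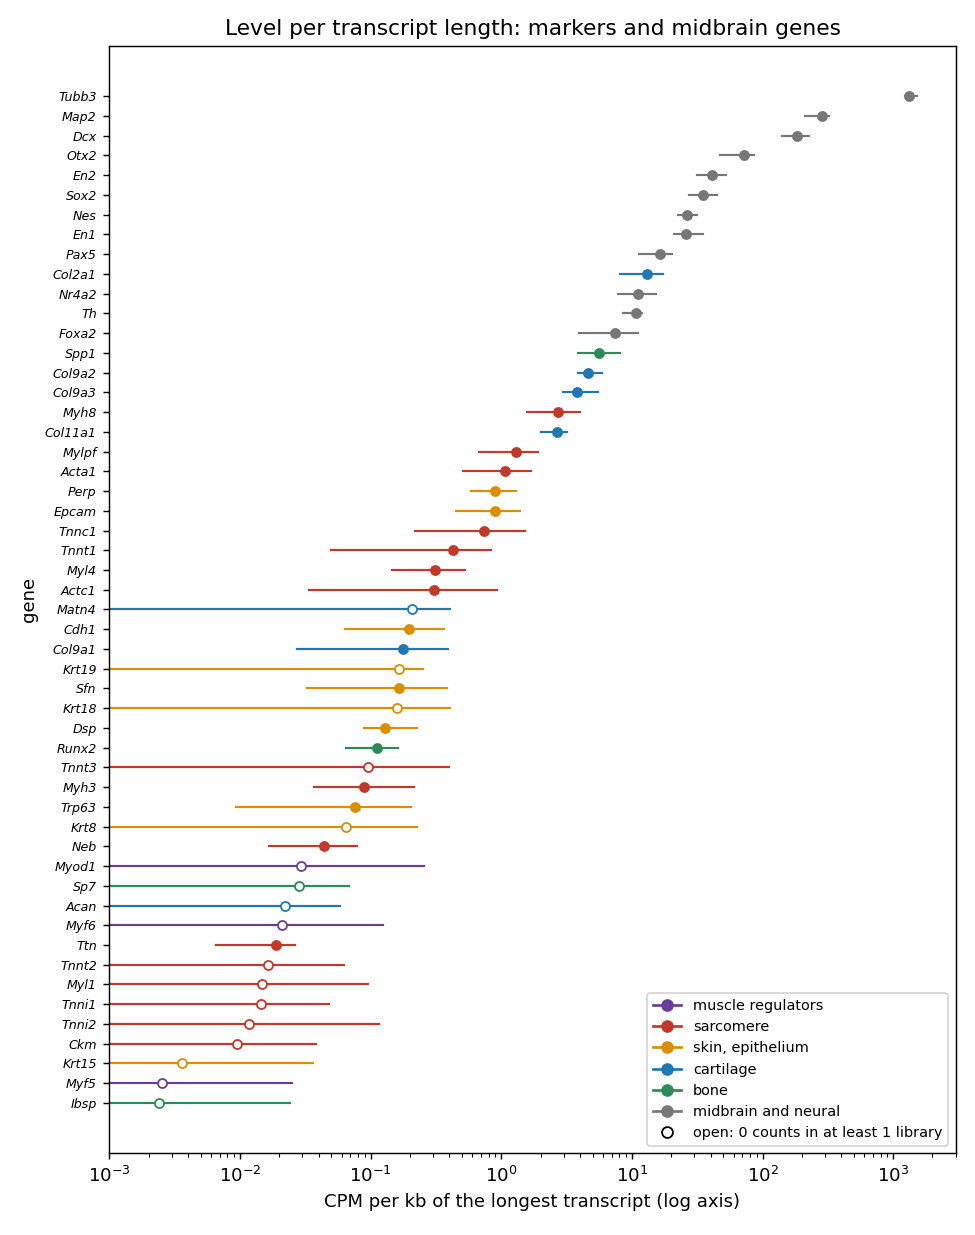
Level of each marker with a count, and of 12 midbrain and neural genes, in CPM per kb of the longest transcript (log axis); points are means over 10 libraries, lines run from the lowest to the highest library, and open points mark genes with 0 counts in at least 1 library, whose lines run to the left edge. Col2a1 lies among the midbrain genes at 13.1, while most muscle, skin and bone genes lie below 1.

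Summed over each list, no library stood out for all tissues at once. The 17 sarcomere and muscle enzyme genes summed to 28.1, 17.5, 24.3, 32.8 and 26.6 CPM in wild-type 1, 2, 4, 5 and 6 and to 25.4, 26.1, 22.3, 28.2 and 23.9 CPM in deletion 2, 3, 4, 5 and 6. Without Myh8 the 16 others summed to 7.74 to 10.6 CPM. The 12 skin and epithelium genes summed to 8.12, 6.21, 8.18, 7.32 and 6.92 CPM in the wild-type and 6.22, 7.93, 6.15, 5.65 and 6.99 CPM in the deletion libraries. The 8 cartilage genes summed to 119, 131, 97.5, 120 and 126 CPM against 114, 104, 129, 112 and 85.1, and the 4 bone genes to 6.61, 13.1, 9.89, 9.30 and 11.6 CPM against 6.96, 9.61, 10.1, 8.95 and 6.67. The highest library was wild-type 5 for sarcomere genes, wild-type 4 for skin genes, and wild-type 2 for both cartilage and bone genes. In each list the groups overlapped.

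**Figure D3:**
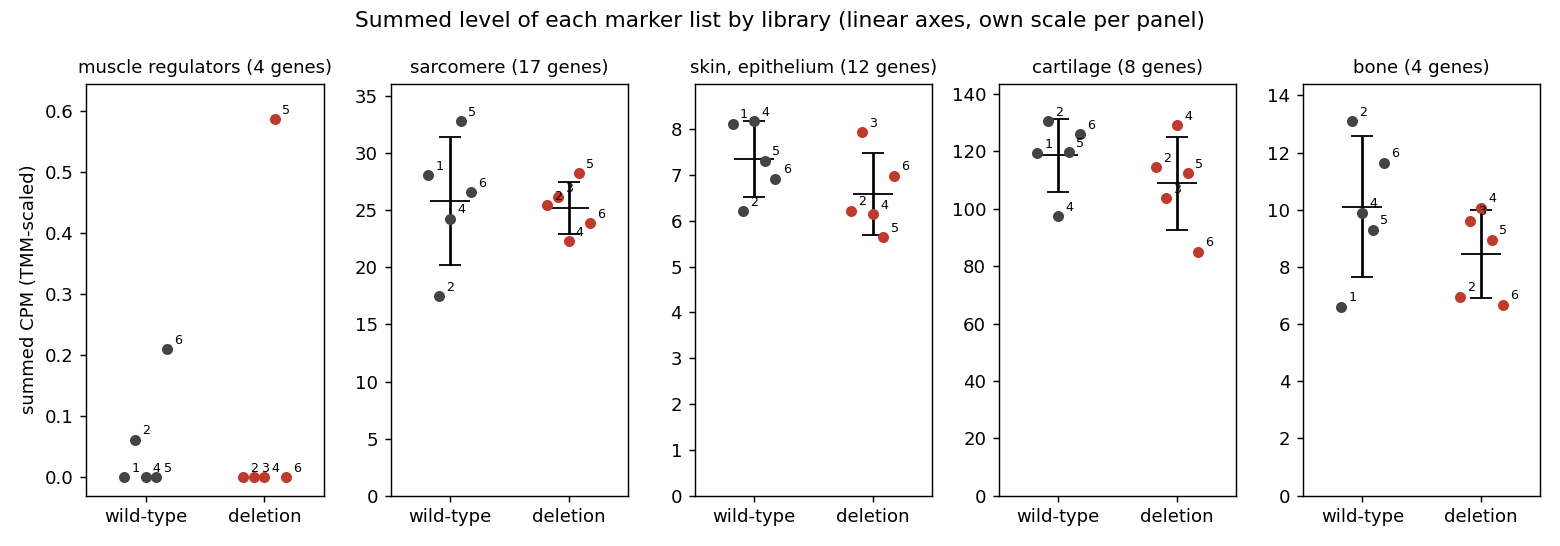
Summed TMM-scaled CPM of each marker list in each library (points, numbered by replicate), by group; horizontal bars and whiskers are mean and SD (n = 5 each), left out for the muscle regulators, where 7 of 10 libraries are at 0. The axes are linear with a scale of their own, and the groups overlap in every panel.

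Sums were also taken over fewer genes of each tissue, called its defining genes here. These sets left out Myh8, Epcam, Col2a1 and Spp1, the most abundant genes of the lists, among others. Their sums are thus lower by choice of genes and do not stand for the full lists. The 7 defining genes of skeletal muscle (Myod1, Myog, Acta1, Ckm, Mylpf, Tnnt3 and Tnni2) summed to 2.39 ± 0.529 CPM over wild-type and 3.05 ± 0.557 CPM over deletion libraries (1.83 in wild-type 6 to 3.72 in deletion 4, with overlapping groups), and of their 501 counts 284 were of Acta1 and 181 of Mylpf. The 5 of skin (Krt5, Krt14, Krt15, Trp63 and Sfn) summed to 0.298 to 1.72 CPM, with wild-type 1 highest. The 3 of cartilage (Acan, Matn1 and Col9a1) summed to 0.320 to 1.51 CPM, with deletion 3 highest, and the 2 of bone (Sp7 and Ibsp) to 0 to 0.210 CPM, with deletion 6 highest. For scale, 12 genes of meningeal fibroblasts summed to 87.2 to 106 CPM, 7 of vascular smooth muscle and pericytes to 91.4 to 119, 7 of the choroid plexus epithelium to 5.75 to 9.78, and 8 of red blood cells to 1699 to 2981 CPM. Single genes led the first lists: Igf2 took 70.6% of the meningeal counts and Rgs5 66.9% of the vascular counts.

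The comparison of deletion with wild-type asked whether any of these markers differed between the genotypes. Of the 45 genes, 19 passed the filter on low counts and were tested in 1 fit with all genes; the other 26 did not pass it. Without the filter, 40 of the 45 were tested and none passed, where 69 of 22889 genes did. None of the 19 passed the quasi-likelihood test of edgeR (smallest adjusted p = 0.429, by Benjamini and Hochberg), where 0.0589% of the 15288 genes tested passed. At an unadjusted p under 0.05 there was 1 of 19, Col9a2, which was lower in the deletion libraries, against 10.5% of all genes in either direction, 4.92% lower and 5.62% higher. DESeq2 called none and gave an adjusted p for only 1 of them, Col2a1 (3.23% of genes called), and limma-voom called none of 19 (0.0589%). The groups did not overlap for 0 of the 19 markers tested, against 2.49% of the genes tested, and the groups overlapped for the markers not tested as well. The 19 had a median log2 fold change of -0.10, with 7 higher and 12 lower in the deletion group, against a median of -0.00 over all genes, 7538 higher and 7750 lower. In whole tissue, fewer cells of a type and less RNA per cell cannot be told apart.

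**Figure D4:**
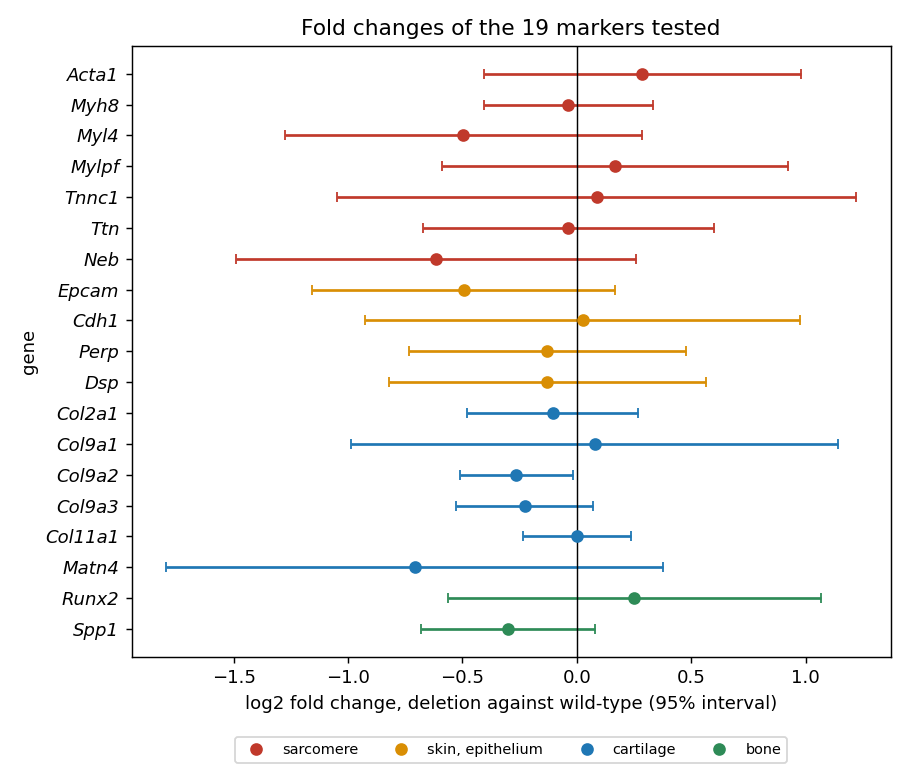
Log2 fold change of deletion against wild-type for the 19 markers tested (points, coloured by tissue) with 95% intervals from edgeR's quasi-likelihood fit (n = 5 each). The interval of Col9a2 alone excludes 0, from -0.51 to -0.02, and it did not pass after adjustment.

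The intervals show how large a difference these data leave possible. For Col11a1 the 95% interval ran from -0.24 to 0.24 on the log2 scale, and for Col2a1 from -0.48 to 0.27. For low genes it was wide: Tnnc1 ran from -1.05 to 1.22, Matn4 from -1.79 to 0.38 and Neb from -1.49 to 0.26. Differences within these ranges are compatible with the data, and the smallest difference that could be detected was not computed for these genes.

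Counts varied between libraries by more than counting error for most of the markers. The spread of a gene's counts over the 10 libraries was expressed as chi-square per degree of freedom against equal shares of library size, where 1 is counting error alone. Its median was 2.67 for the 9 markers with a mean of 1 to 5 counts, against 2.79 for all 2930 genes in that range. It was 4.10 for the 12 markers with a mean of 5 to 20 counts, against 3.07 for all 2345 genes in that range, and 2.98 for the 5 markers with a mean of 20 to 100 counts, against 3.60 for all 2553. For the 5 markers with a mean of 100 to 500 counts it was 7.999, against 4.97 for all 4123 genes. Col2a1 had a value of 48.6, above 99.2% of genes with a mean of 500 to 2000 counts, and Myh8 one of 15.9, above 96.5% of genes with a mean of 100 to 500. The lowest values of markers in these ranges were 1.09 for Krt19 at 1 to 5 counts, 1.19 for Runx2 at 5 to 20 and 1.89 for Perp at 20 to 100. Without Col2a1, the other 7 cartilage genes summed to 41.1 CPM in deletion 4 and 43.8 CPM in deletion 6, the libraries where Col2a1 was highest and lowest. Over all genes, deletion 4 and deletion 6 were also the least similar pair within a group (chi-square per degree of freedom 33.1).

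Whether members moved together across libraries was examined for 10 pairs: the 2 most abundant genes of each list but the regulators, and the most abundant genes of the lists against each other. No pair passed a permutation test of Pearson's r over the 10 libraries (two-sided, adjusted p of at least 0.602 over 10 pairs). The epithelial pair Epcam and Perp had the largest r, 0.57 (rho 0.64; permutation p = 0.0891 and 0.0555, adjusted p = 0.602 and 0.520), and 0.68 without deletion 2 and deletion 6. The cartilage pair Col2a1 and Col11a1 had an r of -0.13 (rho -0.14; permutation p = 0.713 and 0.707, adjusted p = 0.879 and 0.707), and 0.24 without deletion 4 and deletion 6. The muscle pair Myh8 and Ttn had an r of 0.11 (rho 0.21; permutation p = 0.683 and 0.562, adjusted p = 0.879 and 0.702), and 0.65 without wild-type 2 and wild-type 5. Epcam and Spp1, from different tissues, had an r of 0.53 (rho 0.42; permutation p = 0.120 and 0.231, adjusted p = 0.602 and 0.520), which rested on deletion 2 and deletion 6 and was -0.00 without them. Epcam and Col2a1 had an r of 0.07 (rho -0.20, permutation p = 0.843 and 0.582, adjusted p = 0.879 and 0.702), and -0.74 without deletion 2 and deletion 6. Several coefficients thus depended strongly on 2 libraries, which were left out together and not singly. Each genotype holds 5 libraries, too few for a value within it.

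Further genes of the same tissues, listed alongside the 45, also held both genes with no count and genes with counts in every library. Of 36 other muscle genes, 3 had no count in any library (Chrnd, Myoz1 and Cav3), 16 were tested and none passed in edgeR, where 0.0589% of all genes passed and 10.5% had p under 0.05 before adjustment (7 higher and 9 lower, and 1 with p under 0.05 before adjustment). The most abundant were Ryr1, a calcium release channel, at 21.2 CPM and Eno3, the muscle enolase, at 6.74 CPM. Of 33 other epithelial genes, 3 had no count (Krt6a, Krt4 and Krt13), 9 were tested and none passed (3 higher and 6 lower, and 0 with p under 0.05 before adjustment). Krt10 and Krt1, keratins of the upper skin layers, led that list at 12.5 and 6.51 CPM, although the basal keratins Krt5 and Krt14 were at 0. Of 28 other cartilage and bone genes, 3 had no count (Mepe, Mmp13 and Panx3), 10 were tested and none passed (4 higher and 6 lower, and 0 with p under 0.05 before adjustment). Smpd3, a sphingomyelinase that neurons also make, led it at 125 CPM, followed by the fibrillar collagen gene Col11a2 at 12.1 CPM.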

How the data were processed

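The kit for RNA was Direct-zol RNA Miniprep, according to the protocols in the labels. Raw counts per gene were deposited by the authors as 1 table. The submitters' processing notes name HISAT2, featureCounts and mm39; versions, annotation, strandedness and the treatment of multi-mapping reads are not stated there, so near-identical, overlapping and antisense genes are uncertain. All 10 columns matched a sample (0 left over), and 30648 of 30935 IDs had a symbol in RefSeq's GRCm38.p6 gene table. The most similar pair of libraries in a group had a chi-square per degree of freedom of 5.81, more than sampling noise gives, and none was merged. Pairs of deletion 4 with other deletion libraries stood at 20.6 to 33.1, and other deletion pairs at 5.81 to 10.7. Per doubling of transcript length, log2 CPM relative to the library mean changed by -0.0611 to -0.0098 in wild-type libraries. The change was -0.0550 in deletion 4 and 0.0337 to 0.104 in the other deletion libraries, so this trend largely went with genotype.

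The test was that of edgeR 4.0.16 (R 4.3.3): filterByExpr (minimum count 10), TMM scaling, and robust quasi-likelihood fitting on genotype without covariates, two-sided, adjusted by Benjamini-Hochberg over all 15288 genes tested, threshold 0.05. The standard error is the log2 fold change divided by the square root of F. The test was tested on simulated data. Depth per library was 16246892 to 20255728 counts, where 1 count is 0.0496 to 0.0616 CPM. Transcript lengths are the longest GENCODE M21 transcript, found for 92.3% of the genes tested and all 45 markers. Correlations used log2 CPM with a prior count of 2 and 100000 permutations (numpy 2.4.6). Alternatives were RLE and upper-quartile scaling, other filters, a replicate block, DESeq2 1.42.0, limma-voom (limma 3.58.1), a length-trend offset (spline, 4 degrees of freedom), leaving out each library, and, for the list sums, scaling by total counts and leaving out the top gene.

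The members and lists were chosen with earlier results of these data known. Values are given in every library for the 4 muscle regulators, the 3 most abundant and the defining genes of each list, any gene past the threshold, and the gene with the smallest p of each list; other lists give counts, their 2 most abundant genes, and the genes with no count, which were chosen after their values were seen. The lists were the 5 marker lists, further muscle, epithelial and cartilage or bone genes, and genes of meningeal fibroblasts, choroid plexus, vascular smooth muscle and pericytes, microglia, red blood cells and midbrain neural cells. For lists of other cell types only sums are given, since they serve for scale.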

Additional observations from a re-analysis of the deposited data

Results flagged for a closer look

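Within each group of 5 libraries, a library was singled out where its gap to the nearest other library as a share of the group's range exceeded Dixon's 95% critical value for 5 samples. Of 83 gene or list groups examined, 9 met this, and 4 of the 9 rest on groups otherwise at 0. The critical value gives about 1 in 20 by chance only for independent, normal values. Low counts are not such values, and the list sums reuse genes flagged singly, so the 9 cannot be set against that rate. Muscle genes gave 4 single-gene cases. Myod1 in deletion 5 had 9 counts (0.480 CPM) beside 0 in the other deletion libraries, and the sum of the 4 muscle regulators there was 11 counts (0.586 CPM). Myf6 in wild-type 6 had 3 counts (0.157 CPM) and Tnnt2, cardiac troponin T, had 4 counts there (0.210 CPM), each beside 0 in the other wild-type libraries. Myh3 in wild-type 1 had 25 counts (1.30 CPM) against 0.221 to 0.472 CPM in the others. Of the skin genes, Trp63 in wild-type 1 had 21 counts (1.09 CPM) against 0.184 to 0.366 CPM, and the 5 defining skin genes summed to 1.72 CPM there against 0.387 to 0.738 CPM. Epcam in deletion 3 had 51 counts (2.85 CPM) against 0.924 to 1.44 CPM in the other deletion libraries. Col9a2 in deletion 5 had 277 counts (14.8 CPM) against 11.3 to 11.8 CPM.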

How the results depend on the processing

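No marker passed at an adjusted p of 0.05 under any alternative run, the replicate block and every omission of 1 library included. DESeq2 gave 18 of the 19 no adjusted p. With the length trend removed, 0 of the 19 had an unadjusted edgeR p under 0.05, Col9a2 included. That count was 2 of 19 with the replicate block and 2 of 40 without the filter (2183 of 22889 genes). It was 0 to 2 when 1 library was left out, and DESeq2 gave 2 members an unadjusted p under 0.05 (1807 genes). Over all genes the count of calls was 9, and it was 15 with upper-quartile factors, 69 without a filter, 261 in DESeq2, 0 with the replicate block (924 with an unadjusted p under 0.05), 0 with the length trend removed (1185), and 0 to 357 without 1 library (357 without deletion 4, 88 without wild-type 2). Same-numbered libraries did not deviate together over all genes tested (correlations of -0.0624 to 0.0461 in 4 pairs). This cannot show whether they share a litter or dissection day, which the labels do not state. Of 145 log2 fold changes of members under other settings, 135 kept their direction. Those that turned were Col11a1 with RLE factors (-0.0015), upper-quartile factors (-0.0055), no filter (-0.0045), the block (-0.0297), DESeq2 (-0.0011) and the length trend removed (-0.0731), Col9a1 with the block (-0.70), Cdh1 with limma-voom (-0.0184) and the length trend removed (-0.0035), and Myh8 with limma-voom (0.000398). Without 1 library, 165 of 190 kept it. The others ranged from -0.19 to 0.13 for Myh8, -0.15 to 0.56 for Tnnc1, -0.19 to 0.19 for Ttn, -0.22 to 0.39 for Cdh1, -0.26 to 0.0128 for Perp, -0.25 to 0.13 for Dsp, -0.25 to 0.0199 for Col2a1, -0.42 to 0.29 for Col9a1 and -0.0832 to 0.0676 for Col11a1. The log2 ratio of the summed bone genes was -0.26, and 0.25 without Spp1. At a mean under 5 counts, as 22 of the 45 genes had, edgeR tested differences between groups only without the filter. No gene of the 45 passed there, and DESeq2 gave these low genes no adjusted p.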

Other observations

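Mybpc2, the fast-muscle myosin-binding protein C, had the smallest p of the further muscle genes and is named after its values were seen. It had 36, 40, 34, 35 and 23 counts in wild-type 1, 2, 4, 5 and 6 and 16, 16, 13, 7 and 7 in deletion 2, 3, 4, 5 and 6. Every deletion library lay below every wild-type library, as is the case in either direction for 2.49% of the genes tested. It averaged 1.85 ± 0.444 CPM over wild-type and 0.653 ± 0.287 CPM over deletion libraries (SD, n = 5 each; log2 fold change -1.50, SE 0.36, 95% interval -2.25 to -0.75), and edgeR gave it an adjusted p of 0.0874, short of the threshold. Its adjusted p was 0.0584 without a filter, 0.0882 in limma-voom, 0.566 with the replicate block and 0.233 with the length trend removed, and it ran from 0.0457 (without deletion 4) to 0.231 when 1 library was left out. Its slow-muscle relative Mybpc1, also named after its values were seen, had 44, 26, 29, 122 and 50 counts against 82, 88, 60, 24 and 23, with overlapping groups (log2 fold change 0.08, SE 0.48).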
